A study of Mus musculus with 6 samples.

Results

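Trp53 encodes p53, the transcription factor that damaged or stressed cells use to stop the cell cycle, repair DNA or die, and this account follows it and 9 of its best known target genes in a mouse liposarcoma line. The genes were chosen by name: Trp53 itself, the cell cycle genes Cdkn1a, Btg2 and Plk2, the RNA-binding protein gene Zmat3, the death and survival genes Phlda3, Aen and Trp53inp1, the sestrin gene Sesn1 and the secreted factor gene Gdf15. All 10 had a row, each with a p-value, among the 14472 rows of the authors' deposited table. The data are RNA-seq of mLPS1, labelled as mouse dedifferentiated liposarcoma cells, a tumour of the fat lineage. The series has 3 libraries labelled NICD knockout, with p numbers 34, 36 and 39 in their titles, and 3 labelled wild type, with p numbers 35, 37 and 40. NICD is the intracellular domain of a Notch receptor, which enters the nucleus and switches on genes once Notch is activated. The labels give no treatment for either group, name 1 cell line per genotype, and state neither whether the knockout line is a single clone nor whether libraries of a group came from separate cultures, so p-values may measure technical spread only. The genotype label says knockout although over-expression of Notch stands in the title of the series, and the direction used here, knockout over wild type, is that of the name the authors gave their table.

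In unstressed cells p53 is kept low because Mdm2, an enzyme that marks it for destruction, is itself a p53 target. Stress frees p53 from Mdm2, and p53 then binds paired half-sites in DNA near its targets, among which Cdkn1a, encoding the cell cycle inhibitor p21, is the best studied. In human dedifferentiated liposarcoma the MDM2 gene is typically amplified, which holds p53 in check. Much of the control of p53 acts on the protein, so its RNA level is not a measure of its activity.

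The knockout libraries had more RNA of Trp53 and of 3 targets, Plk2, Cdkn1a and Zmat3, and less of 1 target, Gdf15. The other 5 targets, Btg2, Phlda3, Aen, Trp53inp1 and Sesn1, did not pass the test. Plk2 alone of the 10 changed by more than 2-fold per the authors' deposited table. At an adjusted p under 0.05 in the DESeq2 test of the authors' deposited table, 5 of the 10 genes were called, against 50.5% of all 14470 genes tested, so the share called among them is that of the whole table. By direction, 4 of 10 were higher in the knockout, against 25.4% of all genes, and 1 of 10 was lower, against 25.1% of all genes. The median log2 change of the 10 was 0.18, beside 0.02 over all genes tested and -0.07 over the 9285 genes with a mean at least that of Sesn1, the lowest of the 10 per the authors' deposited table.

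**Figure D1:**
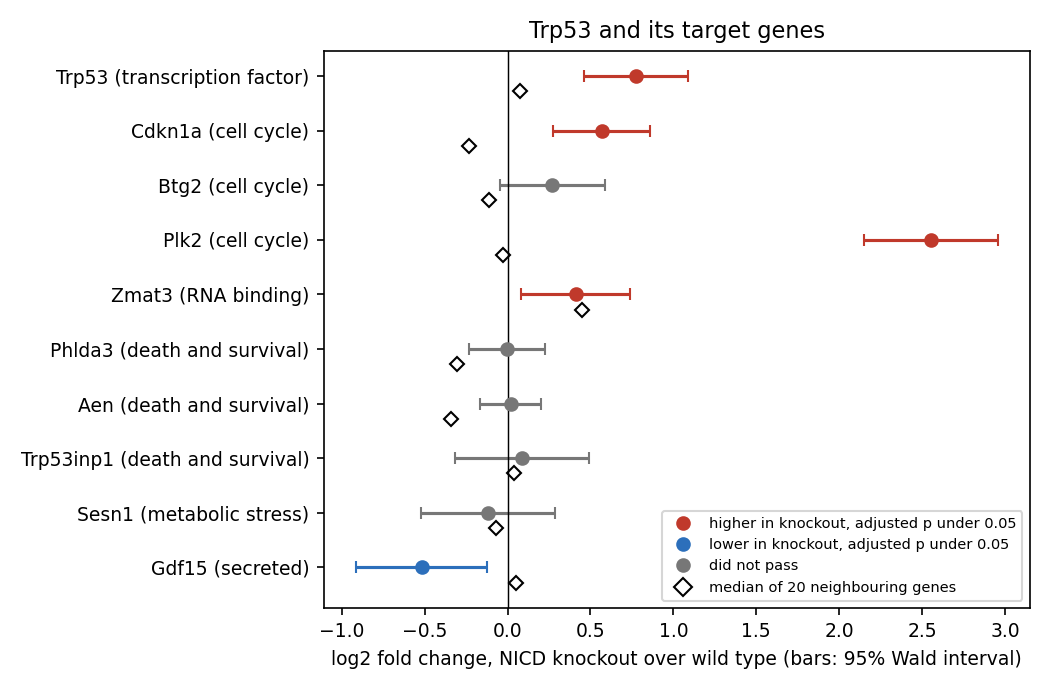
Log2 change, NICD knockout over wild type, of Trp53 and its 9 targets from the authors' deposited table (circles, with 95% Wald intervals as bars), coloured by call at an adjusted p under 0.05, with open diamonds for the median of the 20 expressed genes around each. Plk2 lies at 2.55, far right of the other genes, and the Zmat3 circle sits on its neighbours' diamond.

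Promoter windows were taken from RefSeq (build GRCm38.p6, not the mm39 build of the authors), 250 bases before to 50 after each annotated start, and matched 8 of the 10 genes, in 12 windows. They were searched on both strands for the p53 half-site consensus, which reads the same on either strand. A half-site was found in 5 of the 12 windows, those of 4 genes, and in 8.36% of all 32851 RefSeq windows. The upstream start of Cdkn1a, 2790 bases before its other annotated start, held a pair of half-sites at most 13 bases apart, an arrangement found in 24 of all windows (0.0731%). The second of that pair, GAACATGTCT, begins 51 bases before the start and is followed at once by a near copy, so that the letters CATGNNNNNNCATG, a shorter form searched after the windows were seen and present in 0.712% of all windows, match there too and overlap the half-site. Below are the windows that held a half-site, 1 of the overlapping pair for Aen, and that of Plk2, which held none and whose gene changed most. Capitals mark half-sites, each window is written in the direction of its gene, and a match is a description of the letters, not a bound site. The search covered only these windows and allowed no mismatch. A window without a match therefore does not show that its gene lacks a p53 site.
Cdkn1a, upstream start (chr17:29090729-29091028, plus strand): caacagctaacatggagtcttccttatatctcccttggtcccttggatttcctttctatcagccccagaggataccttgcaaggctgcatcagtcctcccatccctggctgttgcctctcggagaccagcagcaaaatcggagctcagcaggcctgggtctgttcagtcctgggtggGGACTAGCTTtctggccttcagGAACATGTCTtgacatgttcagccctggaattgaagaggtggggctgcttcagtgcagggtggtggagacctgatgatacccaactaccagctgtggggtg
Trp53 (chr11:69580109-69580408, plus strand): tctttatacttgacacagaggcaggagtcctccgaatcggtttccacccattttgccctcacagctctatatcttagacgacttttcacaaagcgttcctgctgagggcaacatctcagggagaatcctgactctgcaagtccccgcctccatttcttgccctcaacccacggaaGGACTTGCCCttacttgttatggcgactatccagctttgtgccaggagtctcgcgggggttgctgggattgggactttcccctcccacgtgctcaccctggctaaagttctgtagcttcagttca
Sesn1, downstream start (chr10:41887189-41887488, plus strand): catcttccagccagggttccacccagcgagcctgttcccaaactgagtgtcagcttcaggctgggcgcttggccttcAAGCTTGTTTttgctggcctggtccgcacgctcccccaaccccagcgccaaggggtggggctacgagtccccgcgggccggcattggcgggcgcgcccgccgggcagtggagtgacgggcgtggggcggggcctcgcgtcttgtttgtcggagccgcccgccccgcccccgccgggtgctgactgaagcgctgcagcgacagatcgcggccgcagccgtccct
Aen, upstream start (chr7:78895677-78895976, plus strand): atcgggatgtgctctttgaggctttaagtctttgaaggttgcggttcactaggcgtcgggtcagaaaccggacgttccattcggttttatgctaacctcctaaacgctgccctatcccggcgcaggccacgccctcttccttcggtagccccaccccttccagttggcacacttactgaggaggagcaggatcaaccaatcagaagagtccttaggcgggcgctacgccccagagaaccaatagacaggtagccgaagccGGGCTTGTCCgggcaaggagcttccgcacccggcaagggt
Plk2 (chr13:110394794-110395093, plus strand): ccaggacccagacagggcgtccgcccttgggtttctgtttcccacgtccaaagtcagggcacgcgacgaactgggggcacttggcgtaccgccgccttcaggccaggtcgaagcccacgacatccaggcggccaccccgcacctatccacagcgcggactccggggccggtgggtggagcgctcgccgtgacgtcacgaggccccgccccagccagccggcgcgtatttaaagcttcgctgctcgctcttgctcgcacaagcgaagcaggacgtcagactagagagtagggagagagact

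Trp53 (ENSMUSG00000059552, chromosome 11) had a fitted level of 6680 normalised counts in the knockout and 3904 in wild type, computed from the mean and fold change of the authors' deposited table. It was 1.71-fold higher in the knockout per the authors' deposited table (log2 change 0.77, SE 0.16, DESeq2 adjusted p = 6.72e-06), with a 95% interval of 1.38-fold to 2.13-fold. No values of single libraries were analysed here, so whether the libraries of the groups overlap cannot be said for any gene. In bulk RNA, more cells of a kind and more RNA per cell cannot be told apart. Its neighbours on the chromosome had a median log2 change of 0.08, and 17 of the 20 lay below Trp53 per the authors' deposited table. The next gene upstream, Wrap53, runs the other way and does not overlap Trp53 in the GENCODE M21 annotation. Wrap53 was 1.37-fold higher in the knockout per the authors' deposited table (log2 change 0.45, SE 0.16, DESeq2 adjusted p = 0.0118), and no source used here says whether the counting used strand. The mouse genome also carries a processed pseudogene of Trp53, so reads shared with it are a limit on the Trp53 value.

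Among the cell cycle genes, Plk2 rose most. Plk2 (ENSMUSG00000021701, chromosome 13), a polo-like kinase that acts in centriole duplication, had a fitted level of 6920 in the knockout and 1179 in wild type from the authors' deposited table. It was 5.87-fold higher in the knockout per the authors' deposited table (log2 change 2.55, SE 0.21, DESeq2 adjusted p = 5.61e-34), with a 95% interval of 4.44-fold to 7.76-fold. All 20 of its neighbours lay below it per the authors' deposited table, between -1.40 and 0.72 on the log2 scale. Its absolute log2 change exceeded that of 94.8% of the 10479 genes whose mean was 100 or more per the authors' deposited table, and it was the only 1 of the 10 that passed a test for a change beyond 1.5-fold. Cdkn1a (ENSMUSG00000023067, chromosome 17) had a fitted level of 14278 in the knockout and 9640 in wild type from the authors' deposited table. It was 1.48-fold higher in the knockout per the authors' deposited table (log2 change 0.57, SE 0.15, DESeq2 adjusted p = 4.43e-04). Its neighbours had a median of -0.23 on the log2 scale and 18 of the 20 lay below it per the authors' deposited table. Btg2 (ENSMUSG00000020423, chromosome 1), whose product slows division by promoting the decay of mRNAs, had fitted levels of 854.9 in the knockout and 708.4 in wild type from the authors' deposited table. Its log2 change of 0.27 (SE 0.16) did not pass per the authors' deposited table (DESeq2 adjusted p = 0.154), and its 95% interval ran from -0.05 to 0.59 on the log2 scale. With its neighbours' median of -0.11 subtracted it passed at 0.38 (adjusted p = 0.0389, recomputed Wald test). That test kept the SE of Btg2 and took the median as free of error, so the p-value leaves out the neighbours' spread.

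**Figure D2:**
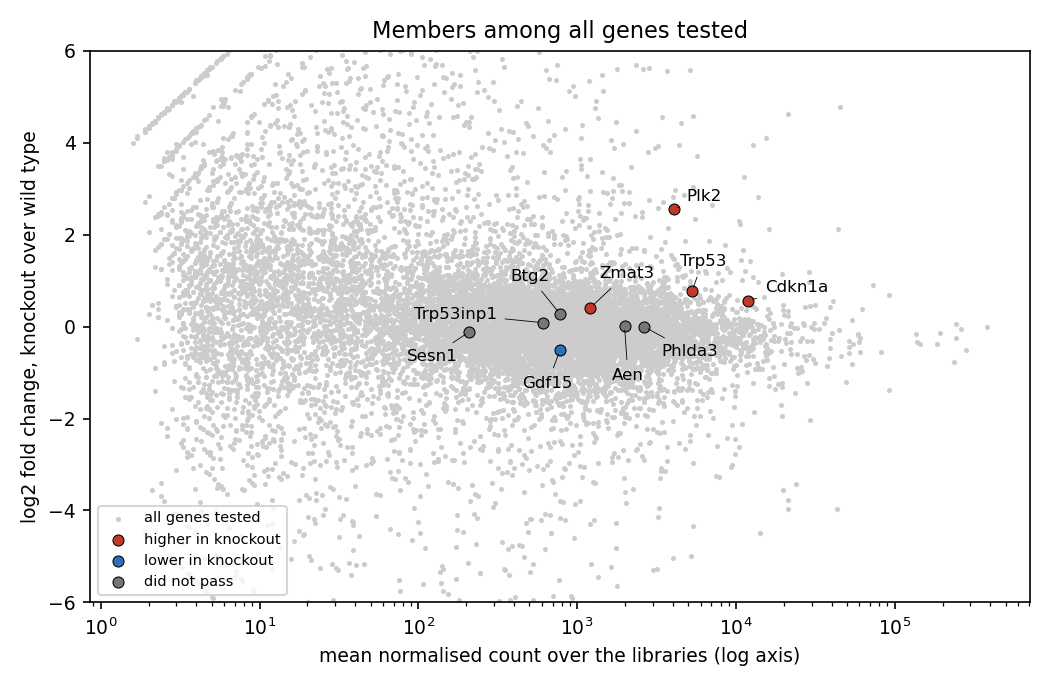
Log2 change against the mean normalised count (log axis) of all genes tested, from the authors' deposited table (grey), with Trp53 and its 9 targets as larger circles coloured by call; 309 genes beyond 6 on the log2 scale in either direction lie outside the plot. Plk2 stands above the bulk of genes at its expression, while Aen and Phlda3 lie on the zero line.

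Zmat3 (ENSMUSG00000027663, chromosome 3), which encodes a zinc finger protein that binds RNA, had a fitted level of 1385 in the knockout and 1041 in wild type from the authors' deposited table. It was 1.33-fold higher in the knockout per the authors' deposited table (log2 change 0.41, SE 0.17, DESeq2 adjusted p = 0.0303). Of its 20 neighbours, 10 were called higher and 3 lower per the authors' deposited table, and their median was 0.45. With that median subtracted, Zmat3 had a log2 change of -0.04 (adjusted p = 0.875 from the recomputed Wald test), and the part of the neighbourhood in its rise was not tested.

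The 3 death and survival genes did not pass. Phlda3 (ENSMUSG00000041801, chromosome 1), an inhibitor of the survival kinase Akt, had fitted levels of 2646 in the knockout and 2656 in wild type, and Aen (ENSMUSG00000030609, chromosome 7), a nuclease of dying cells, had 2001 in the knockout and 1976 in wild type from the authors' deposited table. Their intervals were narrow, 0.85-fold to 1.17-fold for Phlda3 and 0.89-fold to 1.15-fold for Aen. At its precision, a change of 1.20-fold in Phlda3 or 1.16-fold in Aen would have passed. The neighbours of both had medians below 0 per the authors' deposited table, at -0.30 for Phlda3 and -0.34 for Aen. With these subtracted, Phlda3 had a log2 change of 0.30 and Aen of 0.36, and both passed (adjusted p = 0.0252 for Phlda3 and 4.93e-04 for Aen, recomputed Wald test). These p-values leave out the spread of the neighbours, which ran from -2.52 to 4.22 for Phlda3 and from -6.63 to 1.39 for Aen. Trp53inp1 (ENSMUSG00000028211, chromosome 4), which acts in autophagy and cell death, had fitted levels of 627.8 in the knockout and 591.7 in wild type from the authors' deposited table. It was measured less precisely, with a log2 change of 0.09 (SE 0.21, DESeq2 adjusted p = 0.758) per the authors' deposited table and an interval of 0.80-fold to 1.40-fold.

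**Figure D3:**
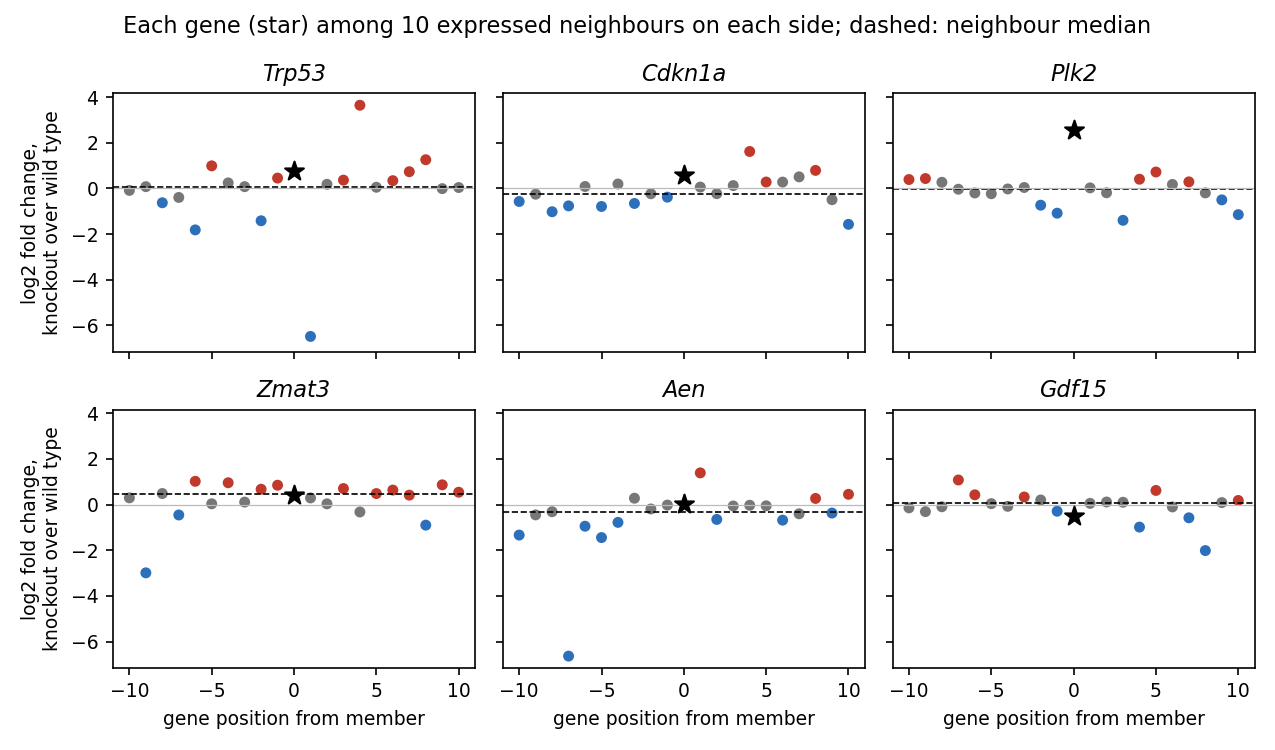
Log2 changes from the authors' deposited table of 6 of the genes (stars) and of the 10 expressed protein-coding genes on each side, by their order along the chromosome; red neighbours were called higher in the knockout, blue ones lower and grey ones not, and the dashed line is the neighbours' median. Plk2 stands above all 20 of its neighbours, while Zmat3 lies at the level of its own.

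Sesn1 (ENSMUSG00000038332, chromosome 10) encodes a sestrin, a brake on the growth kinase mTORC1 under nutrient and oxidative stress. It had fitted levels of 199.8 in the knockout and 217.04 in wild type from the authors' deposited table. Its log2 change of -0.12 (SE 0.21) did not pass per the authors' deposited table (DESeq2 adjusted p = 0.658), and a change of 1.38-fold would have been needed at its precision. Gdf15 (ENSMUSG00000038508, chromosome 8) encodes a circulating hormone of the TGF-beta superfamily that cells release under stress and that curbs appetite. It had a fitted level of 640.7 in the knockout and 917.5 in wild type from the authors' deposited table. It was 1.43-fold lower in the knockout per the authors' deposited table (log2 change -0.52, SE 0.20, DESeq2 adjusted p = 0.0226), while its neighbours had a median of 0.05 and 17 of the 20 lay above it. At a stricter adjusted p under 0.01, neither Gdf15 nor Zmat3 was called.

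Per kb of principal transcript, Cdkn1a had the highest fitted level of the 10 in both groups, 6865 normalised counts per kb in the knockout and 4635 in wild type, and Trp53 the second highest, 3772 in the knockout and 2204 in wild type. Plk2 came next in the knockout at 2471, whereas in wild type, at 421.1, it also lay below Phlda3 and Gdf15. Phlda3 was at 1844 in the knockout and 1851 in wild type per kb. Gdf15 was at 414.7 in the knockout and 593.9 in wild type, and Aen was at 403.8 in the knockout and 398.7 in wild type. Btg2, Zmat3, Trp53inp1 and Sesn1 were the lowest 4, in that order in both groups, from 311.7 to 76.8 in the knockout and from 258.3 to 83.5 in wild type. The Cdkn1a level per kb exceeded that of 98.6% of genes in the knockout and 97.8% in wild type. The spread of these levels over libraries was not analysed here, so which neighbours in the order differ beyond it cannot be said.

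**Figure D4:**
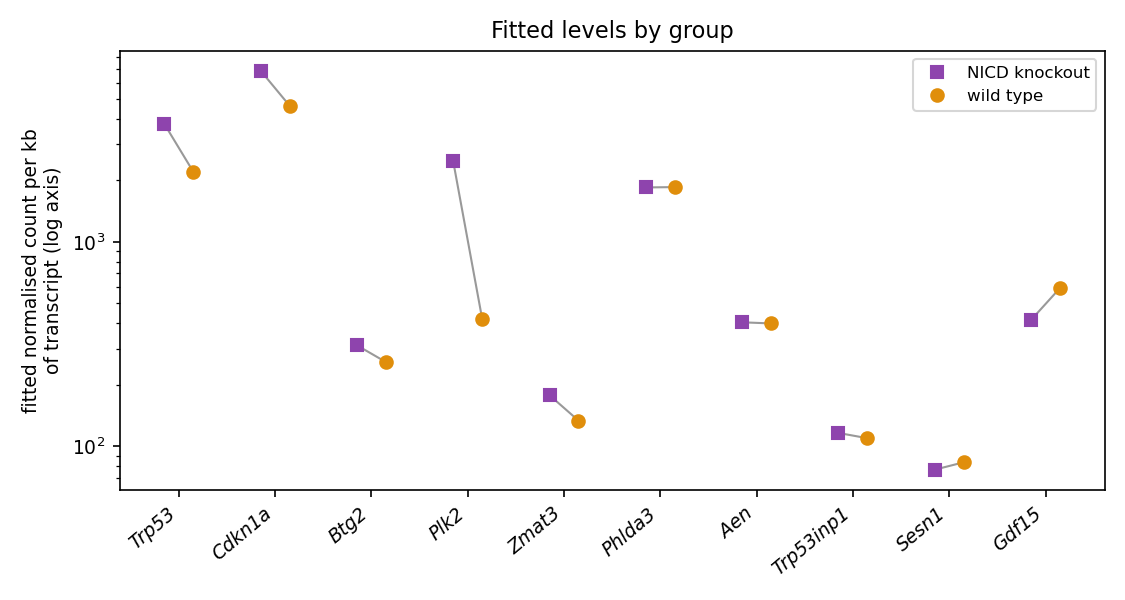
Fitted normalised count per kb of principal transcript (log axis) of Trp53 and its 9 targets in the NICD knockout (squares) and wild type (circles), from the mean and fold change of the authors' deposited table; single libraries are not shown, so there are no error bars. Plk2 has the steepest line between the groups, 2471 per kb in the knockout and 421.1 in wild type.

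The enzymes and partners that set p53 levels were described from a list of 20 genes, of which 19 were tested, with 3 higher, 3 lower and a median log2 change of -0.15 per the authors' deposited table. The share called was 31.6%, with 15.8% in each direction, beside 50.5% of all genes tested, with 25.4% higher and 25.1% lower. Mdm2, also an ortholog of the human liposarcoma amplicon, had fitted levels of 4819 in the knockout and 2908 in wild type and was 1.66-fold higher in the knockout per the authors' deposited table (log2 change 0.73, SE 0.10, DESeq2 adjusted p = 8.33e-12). The other 2 that rose were Atm, the kinase that signals DNA breaks, and Wrap53, with log2 changes of 0.52 and 0.45 per the authors' deposited table. The 3 that fell per the authors' deposited table were Ppp1r13l, which encodes the p53 inhibitor iASPP (log2 change -0.92), Hipk2, a kinase that activates p53 (-1.46, with neighbours at a median of -0.52), and Usp7, a protease that removes ubiquitin from p53 and Mdm2 (-0.57). Mdm4, the partner of Mdm2, and Ppm1d, the phosphatase that ends the response, did not pass, with log2 changes of -0.27 (interval -0.66 to 0.13) and 0.02 (interval -0.26 to 0.30) per the authors' deposited table. Cdkn2a, whose product Arf blocks Mdm2, was not analysed here.

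Further p53 targets from 3 lists, the 10 genes left out, went both ways: of 45 tested, 14 were higher, 10 lower and 21 did not pass per the authors' deposited table, and their median log2 change was 0.17. The share called was 53.3%, beside 50.5% of all genes tested, with 31.1% higher and 22.2% lower, beside 25.4% and 25.1% of all genes. Of 14 tested genes of arrest and repair, 5 were higher and 4 lower per the authors' deposited table (median 0.48). Sfn, which encodes a 14-3-3 protein that blocks entry into mitosis, Psrc1, a spindle protein gene, and Btg1, the relative of Btg2, rose with log2 changes of 1.53, 0.79 and 0.76 per the authors' deposited table. Ccng1, the cyclin G gene and an abundant target, fell to a fitted level of 9270 in the knockout, against 14452 in wild type, per the authors' deposited table (log2 change -0.64, SE 0.11, DESeq2 adjusted p = 4.85e-08). Polh, a DNA polymerase that copies past lesions, fell with a log2 change of -0.55 per the authors' deposited table. Gadd45a, singled out after its value was seen, had a log2 change of 0.79 with an SE of 0.76 per the authors' deposited table and did not pass (DESeq2 adjusted p = 0.399).

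Of 14 tested genes of cell death, 4 were higher and 5 lower per the authors' deposited table (median 0.17). That is 28.6% higher and 35.7% lower, beside 25.4% higher and 25.1% lower of all genes tested. Dram1, a lysosomal protein gene that links p53 to autophagy, and the death receptor gene Tnfrsf10b rose with log2 changes of 2.60 and 0.77 per the authors' deposited table. The level of Dram1 was low, fitted at 93.2 in the knockout and 15.4 in wild type, and its SE was 0.44. Siva1, Eda2r, a receptor gene of the TNF receptor family, and Ei24 fell with log2 changes of -0.99, -0.70 and -0.35 per the authors' deposited table, and the neighbours of Siva1 had a median of -1.16. Bax, Bbc3 and Pmaip1, the core p53 genes of mitochondrial death, singled out after their values were seen, did not pass, with log2 changes of 0.11, 0.38 and 0.16 per the authors' deposited table. Of 17 tested metabolic and other targets, 5 were higher and 1 lower per the authors' deposited table (median 0.14). That is 29.4% higher and 5.88% lower, beside the same shares of all genes, 25.4% and 25.1%. The steepest rises were those of Tap1, the peptide transporter gene of antigen presentation, and Cd80, a co-stimulatory ligand gene, with log2 changes of 3.43 and 2.78 per the authors' deposited table. Tap1 is also a classical interferon target. Nupr1, a stress-induced chromatin protein gene, and Dcxr, a xylulose reductase gene, rose with log2 changes of 1.21 and 0.81 per the authors' deposited table, and the neighbours of Dcxr had a median of 0.81. Crip2, a LIM protein gene, was the 1 that fell, at a log2 change of -1.10 with neighbours at -0.90 per the authors' deposited table. With neighbours' medians subtracted, 6 of the metabolic and other targets were higher and 0 lower, beside 3775 higher and 3069 lower of all 14447 genes.

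**Figure D5:**
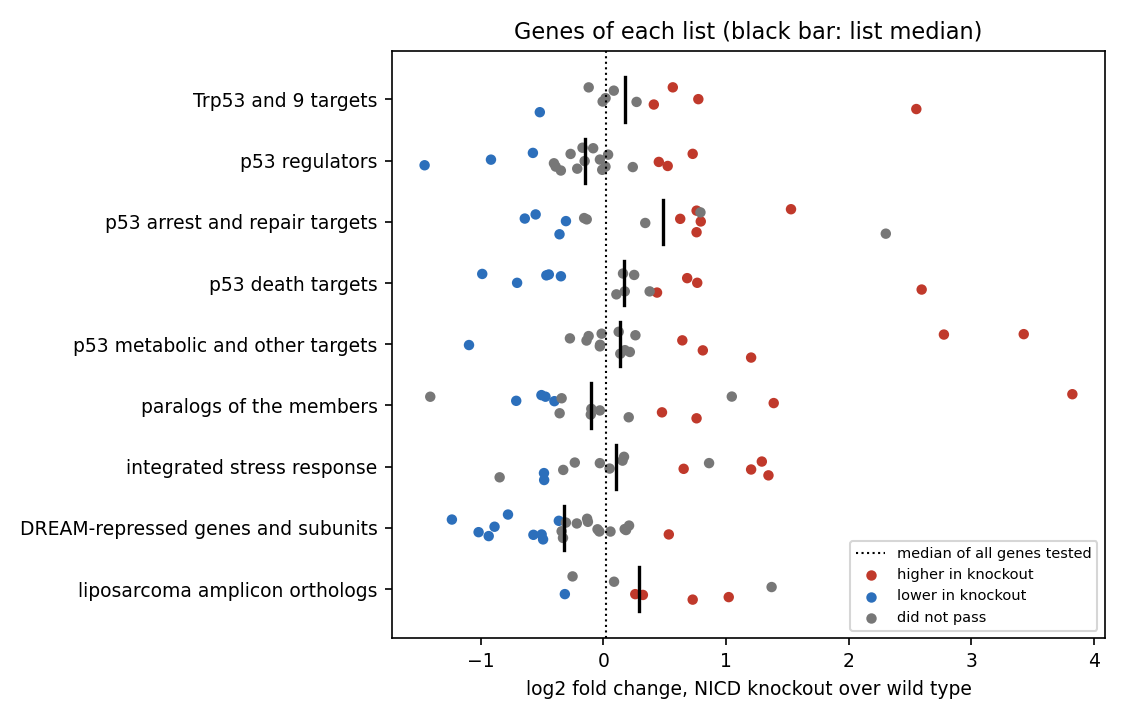
Log2 change, NICD knockout over wild type, of every tested gene of each list from the authors' deposited table, coloured by call, with a black bar at each list's median and a dotted line at the median of all genes tested (0.02). Red and blue points lie on both sides of 0 in the p53 target lists, while the DREAM list has 9 genes called lower and 1 called higher.

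Cell cycle genes that p21 lowers through the repressor complex DREAM were listed together with subunits of the complex, and 1 was higher and 9 lower of 22 tested per the authors' deposited table (median log2 change -0.32). That is 4.55% higher and 40.9% lower, beside 25.4% higher and 25.1% lower of all genes and 24.4% higher and 30.2% lower of the genes whose mean was 100 or more. With the neighbours' medians subtracted, 0 of the list were higher and 6 lower, beside 3775 higher and 3069 lower of all 14447 genes. Under Bonferroni adjustment 0 were higher and 5 lower, beside 1516 higher and 1659 lower of all 14470 genes. Foxm1, the transcription factor of the mitotic programme, fell 2.35-fold (log2 change -1.24, SE 0.10, DESeq2 adjusted p = 4.22e-31) and the proliferation marker Mki67 fell 2.02-fold per the authors' deposited table. Mybl2, Mcm2 and Bub1 fell with log2 changes of -0.93, -0.89 and -0.78 per the authors' deposited table. The neighbours of these 5 genes also had medians below 0, at -0.45 for Foxm1, -0.19 for Mki67, -0.25 for Mybl2, -0.46 for Mcm2 and -0.52 for Bub1 per the authors' deposited table. The other genes called lower were Ccna2, E2f1, Tfdp1 and Mcm5, at -0.57, -0.50, -0.49 and -0.36 per the authors' deposited table. Birc5, the survivin gene, was the 1 that rose, at 0.53 with a neighbour median of 0.57 per the authors' deposited table. Ccnb1, Cdk1 and Top2a, also classical members of the programme, did not pass, with log2 changes of -0.13, -0.13 and 0.19 per the authors' deposited table. Ccna2, E2f1, Tfdp1, Mcm5, Ccnb1, Cdk1 and Top2a were singled out after their values were seen.

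Gdf15 and the sestrin gene Sesn2 can also be switched on by Atf4, the factor of the integrated stress response, and of 14 tested genes of that response 4 were higher and 2 lower per the authors' deposited table (median log2 change 0.10). That is 28.6% higher and 14.3% lower, beside 25.4% higher and 25.1% lower of all genes tested. Ddit3, the factor CHOP, Eif2ak2, the kinase PKR that double-stranded RNA activates and interferon induces, and Nupr1, named above, rose with log2 changes of 1.35, 1.29 and 1.21 per the authors' deposited table. The kinase genes Eif2ak4 and Eif2ak3 each fell at -0.48 per the authors' deposited table, with neighbour medians of -0.63 and -0.47. With such medians subtracted, 4 of the 14 were higher and 0 lower, beside 3775 higher and 3069 lower of all 14447 genes. Atf4, singled out after its value was seen, did not pass, at a log2 change of 0.05 (interval -0.37 to 0.47) per the authors' deposited table. The median SE of these genes was 0.26, against 0.16 over the 10479 genes whose mean was 100 or more, and that of Trib3, also singled out, was 0.85 per the authors' deposited table.

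The closest relatives of the 10 genes had 4 of 16 tested members higher and 4 lower per the authors' deposited table (median log2 change -0.10). That is 25.0% in each direction, beside 25.4% higher and 25.1% lower of all genes tested. With neighbours' medians subtracted, 5 of the 16 were higher and 2 lower, beside 3775 higher and 3069 lower of all 14447 genes. Trp63, which encodes the p53 relative p63, had a fitted level of 37.1 in the knockout and 2.62 in wild type and rose per the authors' deposited table (log2 change 3.83, SE 0.89, DESeq2 adjusted p = 6.57e-05). Per kb of transcript that is 7.89 in the knockout and 0.557 in wild type, far below the 3772 in the knockout and 2204 in wild type of Trp53. Isg20, the relative of Aen and its next gene on the chromosome, rose 2.62-fold per the authors' deposited table (log2 change 1.39, SE 0.24, DESeq2 adjusted p = 2.66e-08). Aen itself was at 0.02, and the difference between these neighbouring relatives was not tested. Cdkn1b, the p27 relative of Cdkn1a, fell with a log2 change of -0.71 per the authors' deposited table, where its neighbours had a median of -0.68. Plk4, the kinase that starts centriole duplication, fell at -0.47 per the authors' deposited table although its neighbours had a median of 0.50. Sesn2 and Sesn3, singled out after their values were seen, did not pass, with log2 changes of -0.03 and -0.10 per the authors' deposited table. Trp73 was not analysed here.

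The orthologs of the human liposarcoma amplicon besides Mdm2 included Hmga2, a chromatin protein gene that rose 2.03-fold, and Cdk4, which did not pass at a log2 change of 0.09 (interval -0.14 to 0.31) per the authors' deposited table. Tspan31 and Frs2 rose at 0.32 and 0.26 and Yeats4 fell at -0.31 per the authors' deposited table, so 4 of 8 were higher and 1 lower. Of all genes tested, 25.4% were higher and 25.1% lower, and whether this short list differs from them was not tested. The neighbours had medians of 0.22 for Tspan31, 0.16 for Frs2 and 0.17 for Yeats4. With such medians subtracted 2 of the 8 were higher and 2 lower, beside 3775 higher and 3069 lower of all 14447 genes.

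Across the whole comparison, the Notch1 gene was 3.43-fold lower and the Notch target Nrarp 79.3-fold lower in the knockout per the authors' deposited table. Both groups expressed the mesenchymal gene Vim, with fitted levels of 66646 in the knockout and 98030 in wild type from the authors' deposited table. Vim was called lower (log2 change -0.56, SE 0.18, DESeq2 adjusted p = 0.00469). Not every mesenchymal marker was abundant, since Col1a2 was fitted at 37.4 in the knockout and 15.5 in wild type. Of 9 mesenchymal markers 8 were tested, with 3 higher and 4 lower per the authors' deposited table. The share called was 87.5%, beside 50.5% of all genes tested, with 25.4% of all genes higher and 25.1% lower. The same shares of all genes apply beside the counts of the other marker lists below. Whether these short lists differ from all genes was not tested. Of 8 adipocyte markers 4 were tested: Fabp4 rose and Lpl fell per the authors' deposited table, while Pparg, the master regulator of fat cells, was fitted at 4.39 in the knockout and 14.4 in wild type and did not pass. Among immune markers, Cd68 and Cd14 rose with log2 changes of 3.64 and 3.80 per the authors' deposited table, whereas Ptprc, the pan-leukocyte gene, was fitted at 13.7 in the knockout and 3.74 in wild type. The 5 tested endothelial and 3 tested epithelial markers had fitted levels of no more than 57.8 in either group per the authors' deposited table, with 1 endothelial marker lower, 2 epithelial markers higher and 1 lower. The part of these markers in the results above was not tested.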

How the data were processed

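RNA of 3 libraries labelled NICD knockout and 3 labelled wild type was measured by RNA-seq, and groups were taken from the genotype labels. Salmon, DESeq2 and the build mm39 stand in the submitters' processing notes, with no version or setting, and no source used here gives a filter on low counts. For each gene the authors deposited, per the file headers, a mean normalised count (a signal that size factors had scaled), a log2 fold change and its SE, both on the log2 scale, the Wald statistic (a score) and the p-value with its adjusted form. The statistic and the adjusted p, recomputed from the other columns, matched within rounding error. Library depths are unknown, since values of single libraries were not analysed here, and the test across all 14470 genes is the authors' DESeq2 Wald test with Benjamini-Hochberg adjustment.

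Computed here were 95% Wald intervals, fitted group levels (assuming 3 libraries per group entered), levels per kb of the GENCODE M21 principal transcript, the smallest change that would have passed, and the median of 20 neighbours, the nearest 10 protein-coding genes on each side whose mean was 100 or more, by GENCODE M21 order. The 10 genes and the 13 lists were chosen with earlier results of these data known. Named are the 10 genes, Mdm2, Mdm4, Cdkn2a, Ppm1d, Trp63, Trp73 and the up to 5 genes with the smallest p per p53-related list. Wrap53, Birc5, Atf4, Trib3, Cdk4, Notch1, Nrarp and the marker genes fall outside this and were named with their values seen, as were those so marked in the text. The count test planned with edgeR was not run, since counts of single libraries were not analysed here. One marker of the immune list is not reported here. Recomputed tests were tested on simulated data whose fold changes were drawn with the deposited SEs and in which few genes changed. That checks the computation, not how the tests behave in these data. Python 3.11.15, pandas 2.3.3 and scipy 1.17.1 were used.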

Additional observations from a re-analysis of the deposited data

How the results depend on the processing

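Of 80 values of single genes (10 genes under 8 alternatives), 62 kept both direction and call. Much of that was fixed in advance. Direction could change only under centring and subtraction of neighbours, since the other alternatives kept the deposited fold change. The stricter thresholds and the fold-change tests could remove calls but not add them. Plk2 passed under all 8 alternatives. With the median of 20 neighbours subtracted, Zmat3 turned to -0.038 and no longer passed, while Phlda3 turned to 0.30 and passed. Btg2 at 0.38 and Aen at 0.36 now passed too, so that 6 of the 10 were higher and 1 lower. Subtraction shifted the fold change of each gene by its neighbours' median, and the adjustment was rerun over 14447 genes. The part of each step in these calls was not separated. The SE stayed that of each gene alone, so calls and counts with neighbours subtracted leave out the spread of the neighbours. At a threshold of 0.01, Zmat3 (0.41) and Gdf15 (-0.52) no longer passed, leaving 0 of the 10 lower. Under Bonferroni adjustment Cdkn1a (0.57), Zmat3 and Gdf15 did not pass, leaving 2 higher and 0 lower. Tests of a change beyond 1.5-fold or 2-fold kept 1 higher and 0 lower, and Trp53 (0.77), Cdkn1a, Zmat3 and Gdf15 did not pass either. All genes called higher and lower numbered 3675 and 3628 in the authors' deposited table, 1516 and 1659 under Bonferroni, 1391 and 1176 beyond 1.5-fold and 930 and 676 beyond 2-fold. With neighbours subtracted they numbered 3775 and 3069 of 14447 genes. The genes of the 8 other p53-related lists pooled had 27 higher and 29 lower of 118 tested, 11 and 11 under Bonferroni, 7 and 4 beyond 1.5-fold and 4 and 0 beyond 2-fold. Restricting the adjustment to genes with a mean of at least 10 or 100 changed no call among the 10. Centring on expressed genes, whose median of -0.05 was subtracted so that all values rose, changed no call either. It turned Phlda3, which was not called, to 0.044. Of 128 counts of single lists, 68 stayed within 1.5 times. Bonferroni adjustment moved 14 of 16 counts, and subtraction of neighbours moved 6 of 16. The median of the 10 lay between 0.18 and 0.33.

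Leaving out libraries was not run, as values of single libraries were not analysed here. No paired analysis was possible because the groups share no number in their titles and the table has no columns of single libraries.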
